A study of Caenorhabditis elegans with 82 samples.

Results

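Third-stage larvae (L3) of Caenorhabditis elegans raised on a mixture of 2 bacterial isolates were compared with L3 larvae raised on Escherichia coli OP50. OP50 is the standard laboratory food. The comparison used 6 of the 82 libraries of the series, 3 of worms on the mixture (Mix, replicates 1, 2 and 3) and 3 of worms on OP50 (replicates 1, 2 and 4). The members are all libraries labelled Mix at L3 and those labelled OP50 at L3, except OP50 replicate 3. All worms were of the wild-type strain N2, kept at 20 °C on the medium that the labels call mNGM, and were taken at 24 h. Mix stands for MYb65 and MYb71 together. The study's text names its Ochrobactrum isolates MYb71 and MYb237. Whether MYb65 and MYb237 are the same isolate, and so whether MYb65 is an Ochrobactrum, is not known here. Neither the labels nor the methods give the ratio of MYb65 to MYb71 in the mixture. Whole worms were pooled for each library, and polyadenylated RNA was sequenced, so that a gene's value is an average over all tissues. The study's methods describe the replicates of its single-isolate exposures as separate runs, and do not describe the mixture. The p-values rest on a spread estimated over all 13 L3 libraries of the model, not on the Mix libraries alone. The part of that spread found between the Mix libraries may be technical. The isolates were also fed singly, and 4 MYb71 and 3 MYb65 libraries at L3 entered the same model. Of these, MYb65 replicate 3 carries L2 in its title and L3 in its time point label, which was followed.

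C. elegans eats bacteria, and its intestine adjusts its metabolism to what each bacterium supplies. Propionate, a product of the breakdown of branched-chain amino acids and odd-chain fatty acids, is normally degraded through a pathway that needs vitamin B12 as a cofactor. When B12 is scarce, as on E. coli OP50, worms are known to switch on a B12-independent propionate shunt, under the nuclear receptors NHR-10 and NHR-68. Vitamin B12 is also the cofactor of methionine synthase, through which the methionine and S-adenosylmethionine (SAM) cycle regenerates methionine. A strong fall of acdh-1, the first gene of the shunt, is a known response of worms to bacteria rich in B12. Members of Ochrobactrum live in the gut of wild C. elegans.

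Total counts ranged from 12905738 to 29600003 in the Mix libraries and from 19484067 to 74552875 in the OP50 libraries. To place the libraries along larval development, each was projected on the line from the mean OP50 library at L2 (position 0) to that at L4 (position 1). The Mix libraries lay at 0.181 to 0.199, the MYb71 libraries at 0.166 to 0.184, the MYb65 libraries at 0.180 to 0.192 and the OP50 libraries at 0.185 to 0.212. Mix therefore overlapped OP50 in position, while the highest MYb71 library (0.1836) lay only just below the lowest OP50 library (0.1849). OP50 replicate 3 lay at 0.686 and its vitellogenins summed to 33900 CPM (counts of a gene per library scaled to a common size), against 34.5 to 107 CPM in the other OP50 libraries. It was left out of the model. Markers of the hypodermis, whose transcripts cycle with each molt, varied within groups, from 1398 to 8278 CPM in summed level over the Mix libraries and from 2815 to 9729 CPM over the OP50 libraries. OP50 replicate 4 had the lowest summed level of body wall muscle and intestine markers of the 3 OP50 libraries. The same library was the lowest in 60 of the 78 genes lower on Mix, and in 37.4% of all genes tested. The part of these differences in the results was not tested.

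**Figure D1:**
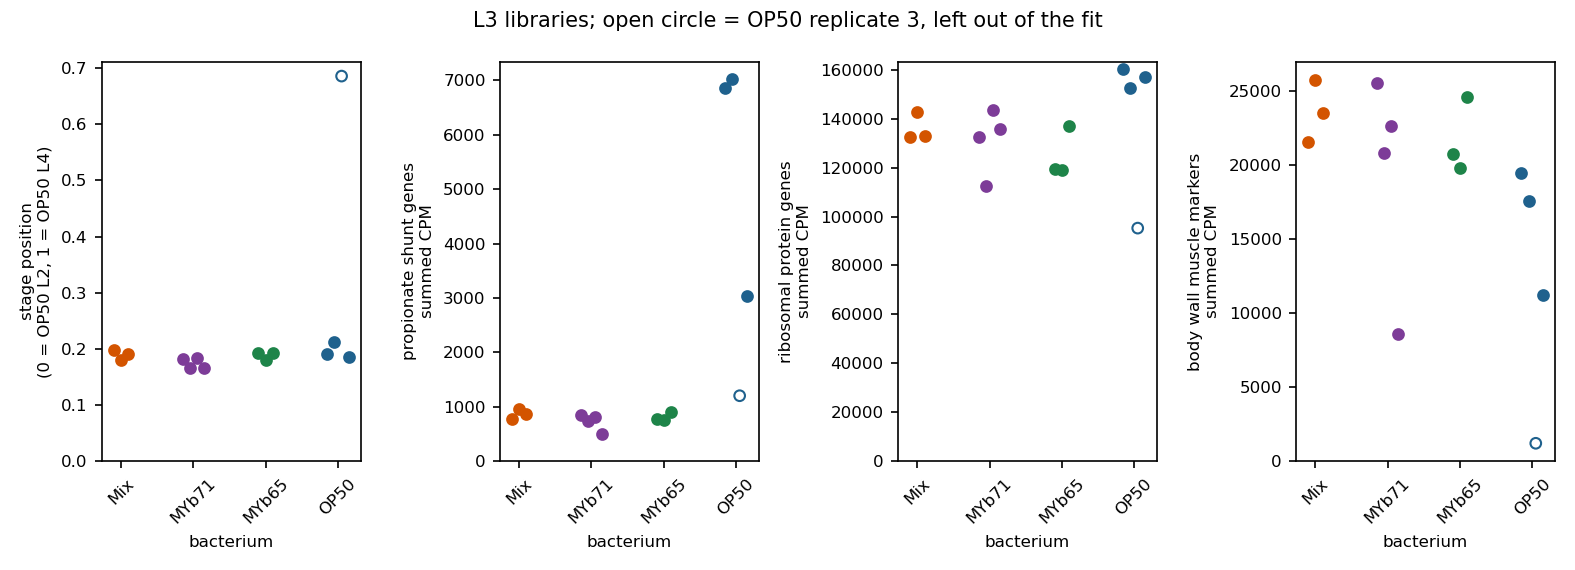
Stage position, summed CPM of the propionate shunt genes, summed CPM of the cytosolic ribosomal protein genes and summed CPM of the body wall muscle markers (y axes) in each L3 library, by bacterium (x axes). Each point is a library, and the open circle is OP50 replicate 3 (stage position 0.686), which was left out of the fit. The summed propionate shunt level was 786 to 957 CPM on Mix and 3046 to 7019 CPM in the other 3 OP50 libraries.

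Few genes were called between worms on Mix and worms on OP50, and most of those called were lower on Mix. Of 14382 genes tested, 97 (0.674%) passed an adjusted p of 0.05 in edgeR's quasi-likelihood test, and 1215 (8.45%) had an unadjusted p under 0.05. Of these, 78 (0.542% of genes tested) were lower and 19 (0.132%) were higher on Mix. A change of at least 1 on the log2 scale was measured in 74 of the lower and in 17 of the higher genes. Changes of at least 3 on that scale were seen in 26 of the lower and 3 of the higher genes. Over all genes tested the median log2 fold change was -0.02. This median and the shares of 0.542% lower and 0.132% higher are the background for the called genes of each list below. In each of the 97 genes all Mix libraries lay on 1 side of all OP50 libraries, as they did in 1399 genes (9.73%) above and in 1610 genes (11.2%) below OP50 among all genes tested. Of the called genes, 93 are protein coding, and 26 overlap another gene on the genome, so that reads of both genes cannot be told apart without strand. A lower value can stand for fewer cells of a type or for less RNA per cell, which cannot be told apart in pooled whole worms.

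The number of called genes depended on the libraries in the model. It was 43 to 64 when 1 of Mix replicates 1, 2 and 3 or of OP50 replicates 1 and 2 was left out, 145 without OP50 replicate 4 and 166 without MYb71 replicate 4. With OP50 replicate 3 included, 22 genes passed, all of them among the 97, and a model of the 6 libraries alone called 13 genes and DESeq2 on the 13 libraries 293. Of the genes called on the 6 libraries alone, 11 were among the 97. Most of the 97 calls were therefore lost with OP50 replicate 3 and in the model of 6 libraries. These losses are given below for some genes only.

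**Figure D2:**
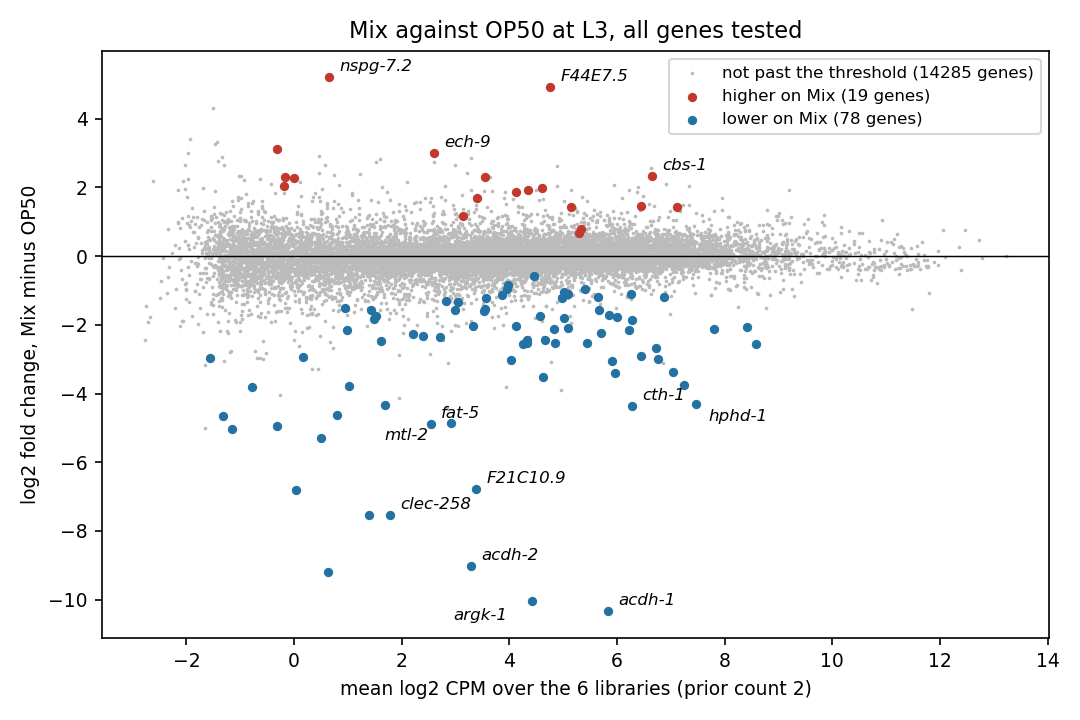
Log2 fold change of Mix over OP50 at L3 (y axis) against the mean log2 CPM over the 6 libraries (x axis) for all 14382 genes tested. Grey points did not pass an adjusted p of 0.05, and the 78 blue points lie below 0 and the 19 red points above 0, with acdh-1 and argk-1 the lowest of the labelled genes.

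In the propionate shunt 4 of 5 genes were lower on Mix, beside 0.542% of all genes. Its median log2 fold change was -2.54, against -0.02 over all genes. The gene acdh-1 encodes the acyl-CoA dehydrogenase that opens the shunt. It had 3.89, 0.579 and 0.996 CPM in the Mix libraries, against 2571, 3282 and 1448 CPM in the OP50 libraries. Every OP50 library held it at a high level and every Mix library near 0 (log2 fold change -10.33 ± 0.90 (SE), adjusted p = 0.00029). The mean level of hphd-1, which encodes the dehydrogenase of 3-hydroxypropionate, was 42.4 ± 6.39 CPM on Mix and 837 ± 438 CPM on OP50 (SD, n = 3 each). Its libraries gave 35.0, 46.2 and 45.9 CPM on Mix, against 1177, 989.5 and 343 CPM on OP50 (log2 fold change -4.30 ± 0.39 (SE), adjusted p = 0.00029). In all 4 genes the lowest OP50 value was that of replicate 4, which still lay above every Mix value. In edgeR's test on the 6 libraries alone, all 4 missed the threshold (adjusted p = 0.053 to 0.15). With OP50 replicate 3 included, ech-6 and hach-1 missed it as well (adjusted p = 0.14 and 0.13).

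For ech-6, the enoyl-CoA hydratase of the shunt, values were 149, 172 and 169 CPM on Mix, against 1231, 1046 and 583 CPM on OP50 (log2 fold change -2.54 ± 0.25 (SE), adjusted p = 0.00053). The hydrolase gene hach-1 was nearly even over the Mix libraries, with 113, 112 and 109 CPM on Mix, against 666, 552 and 238 CPM on OP50 (log2 fold change -2.12 ± 0.29 (SE), adjusted p = 0.0049). The exception was alh-8, which encodes the last enzyme and is shared with other pathways. It had 484, 626 and 539 CPM on Mix, against 1220, 1150 and 435 CPM on OP50, and OP50 replicate 4 fell below all Mix libraries (log2 fold change -0.77 ± 0.43, adjusted p = 0.67). A neighbour of the shunt, dhgd-1, encodes D-2-hydroxyglutarate dehydrogenase, which in C. elegans is known to act on a product of HPHD-1. It was lower as well, with 35.2, 43.5 and 41.0 CPM on Mix, against 438, 318 and 189.5 CPM on OP50 (log2 fold change -2.98 ± 0.26 (SE), adjusted p = 0.00029).

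In the B12-dependent propionate pathway 1 of 6 genes passed, mmaa-1, and the median log2 fold change was 0.06. The subunits of propionyl-CoA carboxylase, which starts the pathway, had a log2 fold change of 0.43 ± 0.20 for pcca-1 and of 0.24 ± 0.23 for pccb-1 (adjusted p = 0.62 and 0.74). The epimerase gene mce-1 (-0.08 ± 0.28), the mutase gene mmcm-1 (0.20 ± 0.18) and mmab-1 (-0.26 ± 0.18), which makes the active cofactor, did not pass either. By contrast mmaa-1, which encodes a chaperone that loads the mutase with its B12 cofactor, had 40.4, 46.3 and 39.5 CPM in the Mix libraries, against 192, 169 and 92.6 CPM in the OP50 libraries (log2 fold change -1.84 ± 0.22 (SE), adjusted p = 0.0019). Its Mix libraries lay within a narrow range, and OP50 replicate 4 was the nearest to them.

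Of the 4 genes listed as handling the vitamin itself, 2 were lower (median -0.99). The gene cblc-1 encodes the protein that strips incoming cobalamin of its ligand. It had 16.2, 16.8 and 17.2 CPM in the Mix libraries, against 70.4, 92.3 and 51.8 CPM in the OP50 libraries (log2 fold change -2.10 ± 0.28 (SE), adjusted p = 0.004), and it overlaps ZK546.4 on the genome. The reductase that keeps methionine synthase active is encoded by mtrr-1, with 40.2, 30.6 and 30.3 CPM on Mix, against 317, 313 and 122 CPM on OP50 (log2 fold change -2.89 ± 0.31 (SE), adjusted p = 0.00099). For mrp-5, an exporter that carries B12 out of the intestine, all Mix values (146, 135 and 131 CPM) lay above all OP50 values (114, 97.5 and 68.6 CPM), but the difference did not pass (log2 fold change 0.56 ± 0.26, adjusted p = 0.6). The remaining gene, mmad-1, had a log2 fold change of 0.11 ± 0.16.

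Of the nuclear receptors known from the response to B12, nhr-68 and nhr-114 were lower, and nhr-10 did not pass. The receptor gene nhr-68, an activator of the shunt, had 19.0, 16.9 and 18.7 CPM in the Mix libraries, against 98.4, 109 and 106 CPM in the OP50 libraries, with little spread in either group (log2 fold change -2.52 ± 0.24 (SE), adjusted p = 0.00044). Its partner nhr-10 had 33.3, 52.2 and 45.6 CPM on Mix, against 55.9, 40.5 and 42.4 CPM on OP50, and the groups overlapped (log2 fold change -0.09 ± 0.23, adjusted p = 0.9). In C. elegans nhr-114 is known from the response to a low methionine and SAM cycle. It had 32.8, 18.0 and 15.1 CPM on Mix, against 183, 251 and 109 CPM on OP50 (log2 fold change -3.04 ± 0.47 (SE), adjusted p = 0.014). The nhr-114 call was lost without Mix replicates 2 and 3 and OP50 replicate 2, each left out in turn (adjusted p = 0.056 to 0.1). Over the whole family, with a median log2 fold change of 0.01, 5 of 203 nuclear receptor genes passed, all lower, beside 0.542% of all genes. The others were nhr-202 (-2.33 ± 0.20), nhr-101 (-1.54 ± 0.30) and nhr-11 (-1.22 ± 0.24), of which nhr-202 overlaps nhr-201, and nhr-101, which was singled out after its values were seen, overlaps pms-2. The nhr-11 call was lost without Mix replicates 1, 2 and 3, MYb71 replicates 1, 2 and 3, MYb65 replicates 1 and 2 and OP50 replicates 1 and 2, each left out in turn (adjusted p = 0.055 to 0.25).

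Of the methionine and SAM cycle 3 of 13 genes were lower on Mix, beside 0.542% of all genes. The list's median log2 fold change was -1.21. In 8 of the 13 genes all Mix libraries lay below all OP50 libraries, beside 11.2% of all genes. Besides mtrr-1, the genes that passed were metr-1 and sams-3. The methionine synthase gene metr-1 had 128, 218 and 185 CPM in the Mix libraries, against 904, 965 and 361 CPM in the OP50 libraries (log2 fold change -2.07 ± 0.38 (SE), adjusted p = 0.035). Its OP50 value in replicate 4 was less than those of the other two OP50 libraries, and the metr-1 call was lost without Mix replicates 1, 2 and 3, MYb71 replicates 1 and 3, MYb65 replicates 1, 2 and 3 and OP50 replicates 1 and 2, each left out in turn (adjusted p = 0.052 to 0.18). A SAM synthetase gene, sams-3, had 54.3, 57.0 and 47.7 CPM on Mix, against 127, 134 and 80.6 CPM on OP50 (log2 fold change -1.10 ± 0.21 (SE), adjusted p = 0.042), and it overlaps C06E7.4. The sams-3 call was lost without Mix replicates 1, 2 and 3, MYb71 replicates 1, 2 and 3, MYb65 replicates 1, 2 and 3 and OP50 replicates 1 and 2, each left out in turn (adjusted p = 0.06 to 0.26).

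Several other genes of the cycle had lower values in every Mix library without passing the test. For the adenosylhomocysteinase gene ahcy-1, the log2 fold change was -1.53 ± 0.52 (adjusted p = 0.38), with 1475, 2126 and 1737 CPM on Mix, against 7174, 5949 and 2323 CPM on OP50. The methylenetetrahydrofolate reductase gene mthf-1 (-1.49 ± 0.37, adjusted p = 0.14) and pmt-2 (-1.51 ± 0.41, adjusted p = 0.18), which methylates phosphoethanolamine intermediates toward phosphatidylcholine, also had every Mix library below every OP50 library. The closest to the threshold was rips-1, a methyltransferase gene, with 14.8, 7.17 and 8.20 CPM on Mix, against 43.3, 123 and 89.0 CPM on OP50 (log2 fold change -3.07 ± 0.73, adjusted p = 0.11). The SAM synthetase genes sams-1 (-0.53 ± 0.46) and sams-4 (-0.23 ± 0.21), overlapped between groups. Of the 11 folate and glycine cleavage genes none passed, and the nearest was the folate transporter gene folt-2, with 38.9, 54.8 and 39.8 CPM on Mix, against 715, 307 and 128 CPM on OP50 (log2 fold change -3.11 ± 0.62, adjusted p = 0.056).

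Of the transsulfuration genes, which turn homocysteine into cysteine, cbs-1 was higher and cth-1 lower on Mix, and the other 9 genes of the list did not pass (median -0.03). The first step, cystathionine beta-synthase, is encoded by cbs-1, which had 184, 279 and 219.5 CPM in the Mix libraries, against 45.2, 34.6 and 56.6 CPM in the OP50 libraries (log2 fold change 2.32 ± 0.26 (SE), adjusted p = 0.0013). The second step, cystathionine gamma-lyase, is encoded by cth-1, with 14.9, 18.7 and 19.2 CPM on Mix, against 339.8, 521 and 226 CPM on OP50 (log2 fold change -4.36 ± 0.30 (SE), adjusted p = 8.2e-05). The lowest Mix value of cbs-1 exceeded its highest OP50 value, and the highest Mix value of cth-1 was far below its lowest OP50 value. The second gene of this kind, cth-2, did not pass, with 123, 297 and 207 CPM on Mix, against 234, 97.8 and 126 CPM on OP50 (log2 fold change 0.45 ± 0.36, adjusted p = 0.72).

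**Figure D3:**
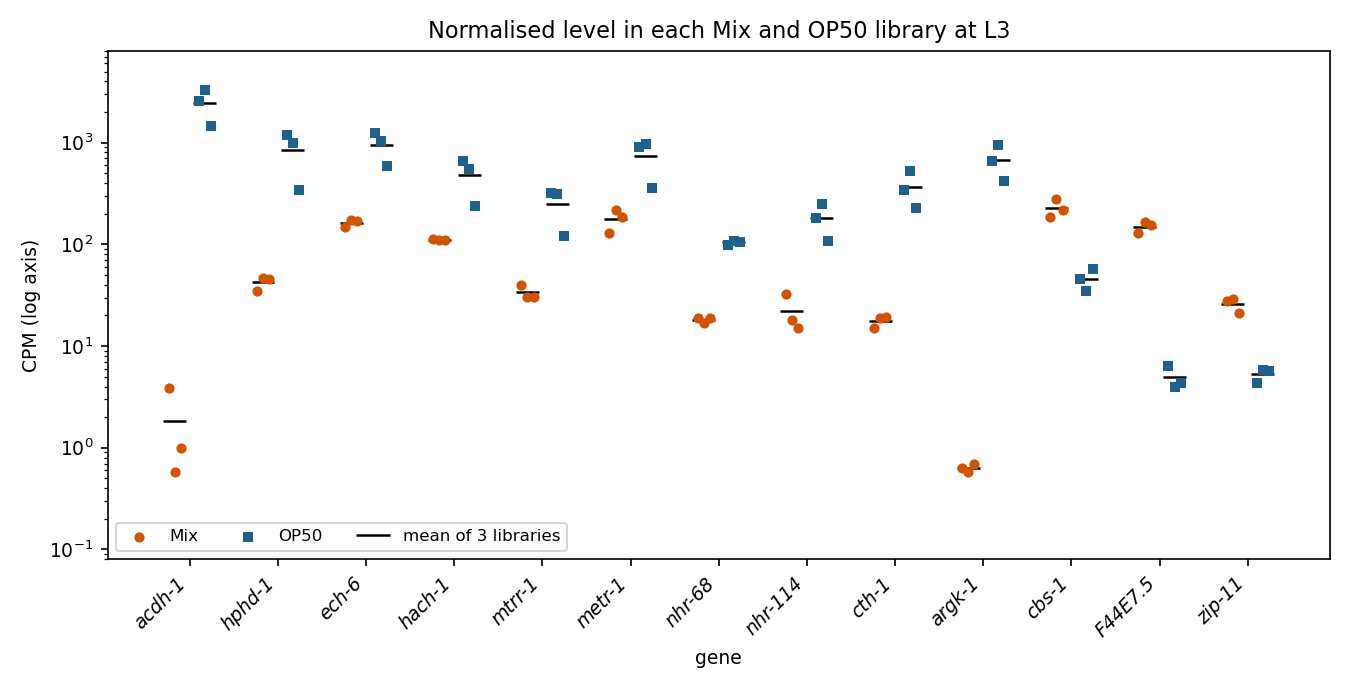
Normalised level (CPM, log y axis) of 13 genes (x axis) in each of the 3 Mix libraries (circles) and the 3 OP50 libraries (squares) at L3, with the mean of each group as a bar. Each of the 10 genes from acdh-1 to argk-1 is lower in every Mix library, and cbs-1, F44E7.5 and zip-11 are higher in every Mix library, for F44E7.5 with 129, 164 and 156 CPM on Mix, against 6.43, 3.98 and 4.36 CPM on OP50.

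The lowest adjusted p of the comparison belonged to argk-1, which encodes an arginine kinase, an enzyme that stores energy as phosphoarginine. It had 0.637, 0.579 and 0.689 CPM in the Mix libraries, against 665, 939.5 and 420.4 CPM in the OP50 libraries (log2 fold change -10.05 ± 0.59 (SE), adjusted p = 2.7e-05), and it passed under all 23 alternative settings. On chromosome V (WBcel235), argk-1 (16103894 to 16105952, plus strand) follows cth-1 (16100680 to 16102750, plus strand) with 1143 bases between them. Another pair of neighbours was acdh-1 and C55B7.3 on chromosome I, which lie 421 bases apart on the plus strand. C55B7.3 was singled out after its values were seen. C55B7.3 had 2 counts in all over the Mix libraries and 3002 over the OP50 libraries, so that its level per depth was 849.8 times as high on OP50 (exact 95% interval 235.0 to 7020, counting error only, and the fitted change passed at adjusted p = 0.0033). Chromosome V carried 41.2% of the called genes and 20.8% of the genes tested, and chromosome I 5.15% and 15.5%.

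In the list of branched-chain amino acid breakdown 1 gene of 13 passed, the acyl-CoA dehydrogenase gene acdh-2. It had 0.283, 0.489 and 0.689 CPM in the Mix libraries, against 488, 169 and 63.3 CPM in the OP50 libraries (log2 fold change -9.02 ± 0.92 (SE), adjusted p = 0.00073), and it overlaps ins-13. Of 53 genes of fatty acid beta-oxidation and the peroxisome, pmp-5 was lower and ech-9 higher (median 0.01). A transporter of the ABC family is encoded by pmp-5, with 43.3, 44.7 and 40.7 CPM on Mix, against 587, 530.1 and 217 CPM on OP50 (log2 fold change -3.37 ± 0.33 (SE), adjusted p = 0.00053). The methionine sulfoxide reductase gene msra-1, which repairs oxidised methionine, had 44.5, 41.0 and 43.5 CPM on Mix, against 755, 714 and 279 CPM on OP50 (log2 fold change -3.76 ± 0.39 (SE), adjusted p = 0.00073), and it overlaps insc-1. The Mix values of pmp-5 and of msra-1 differed little among themselves, while OP50 replicate 4 was the lowest OP50 library in both. In edgeR's test on the 6 libraries alone, pmp-5 and msra-1 missed the threshold (adjusted p = 0.058 and 0.053). With OP50 replicate 3 included, they missed it as well (adjusted p = 0.28 and 0.24).

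Of 20 genes of fatty acid synthesis and desaturation, fat-5 and fat-7 were lower (median -0.17). Both encode delta-9 desaturases, enzymes that put the first double bond into saturated fatty acids. For fat-7, values were 3.82, 7.74 and 6.36 CPM on Mix, against 41.3, 72.4 and 32.0 CPM on OP50 (log2 fold change -3.03 ± 0.37 (SE), adjusted p = 0.0021), and for fat-5 they were 0.743, 1.82 and 0.766 CPM on Mix, against 28.7, 52.4 and 19.1 CPM on OP50 (log2 fold change -4.89 ± 0.95 (SE), adjusted p = 0.047). The call of fat-5, which overlaps twk-42, was lost without Mix replicates 1, 2 and 3, MYb71 replicate 2, MYb65 replicates 1, 2 and 3 and OP50 replicates 1 and 2, each left out in turn (adjusted p = 0.061 to 0.25). Of the genes that did not pass, fat-6 and fasn-1 were singled out after their values were seen. The related fat-6 had lower values in every Mix library, with 128, 247 and 224 CPM on Mix, against 438, 436 and 324 CPM on OP50 (log2 fold change -0.998 ± 0.38, adjusted p = 0.46). For the fatty acid synthase gene fasn-1 (1.26 ± 0.47, adjusted p = 0.45) all Mix libraries lay above all OP50 libraries.

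Among genes that bind metals, 1 of 40 passed (median of the list 0.07), beside 0.674% of all genes. This was the metallothionein gene mtl-2. It had 1.42, 0.712 and 2.30 CPM in the Mix libraries, against 30.2, 33.8 and 61.8 CPM in the OP50 libraries (log2 fold change -4.86 ± 0.79 (SE), adjusted p = 0.017). The mtl-2 call was lost without Mix replicates 1, 2 and 3, each left out in turn (adjusted p = 0.069 to 0.11). Detoxification genes passed in small numbers in edgeR's test, all lower, and are given beside 0.542% of all genes. There were 2 of 64 cytochrome P450 genes (median -0.16), 2 of 62 UDP-glucuronosyltransferase genes (median -0.24) and none of 45 glutathione S-transferase genes (median -0.01). These were cyp-13A4 (-4.96 ± 0.82), which was barely detected on Mix (0.0354, 0.223 and 0.0766 CPM), cyp-35C1 (-2.02 ± 0.35), ugt-17 (-1.75 ± 0.22) and ugt-16 (-1.56 ± 0.29). Every Mix library lay below every OP50 library in 18 UDP-glucuronosyltransferase genes (29.0%, beside 11.2% of all genes). They lay above in 3 (4.84%, beside 9.73%). An unadjusted p under 0.05 was found in 18 (29.0%, beside 8.45%), and DESeq2 called 9 lower and 1 higher. For cytochrome P450 genes these separations were 12 below (18.8%) and 3 above (4.69%), and DESeq2 called 3 lower and 2 higher. The cyp-13A4 call was lost without Mix replicates 1, 2 and 3 and OP50 replicate 2, each left out in turn (adjusted p = 0.057 to 0.11). The call of cyp-35C1 was lost without Mix replicates 2 and 3 and OP50 replicates 2 and 4, each left out in turn (adjusted p = 0.054 to 0.14), and that of ugt-16 without Mix replicates 2 and 3, MYb71 replicates 1 and 2, MYb65 replicate 1 and OP50 replicates 1 and 2, each left out in turn (adjusted p = 0.052 to 0.22).

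C-type lectin-like proteins may bind sugars, and many are known from the response to bacteria. Of the 240 such genes in the table, 121 had too few counts to be tested. Among the others 4 were lower and none higher in edgeR's test, beside 0.542% and 0.132% of all genes. An unadjusted p under 0.05 was found in 37 (31.1% of those tested, beside 8.45% of all genes), and DESeq2 called 7 lower and 8 higher. The median log2 fold change was 0.22 and all Mix libraries lay above all OP50 libraries in 26 genes (21.8%, beside 9.73% of all genes) and below them in 12 (10.1%, beside 11.2%). The lectin-like gene clec-258 had 0.319, 0.134 and 0.230 CPM in the Mix libraries, against 18.4, 55.8 and 58.5 CPM in the OP50 libraries (log2 fold change -7.54 ± 0.67 (SE), adjusted p = 0.00029), and with argk-1 it was one of 2 named genes that passed under every alternative setting. The other lectin-like genes that passed were clec-48 (-2.43 ± 0.42), clec-206 (-3.80 ± 0.65) and clec-210 (-1.75 ± 0.33). Of these, clec-206 was barely detected on Mix, with 7 counts in all, against 165 on OP50. The clec-48 call was lost without Mix replicates 1, 2 and 3 and OP50 replicates 1 and 2, each left out in turn (adjusted p = 0.069 to 0.12). That of clec-206 was lost without Mix replicates 1, 2 and 3 and OP50 replicate 2, each left out in turn (adjusted p = 0.085 to 0.11) and that of clec-210 without Mix replicates 1, 2 and 3, MYb71 replicate 2, MYb65 replicate 2 and OP50 replicates 1, 2 and 4, each left out in turn (adjusted p = 0.051 to 0.21).

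Of the 8 infection response genes, named for their induction by Pseudomonas aeruginosa, 1 passed, irg-4, with 6.34, 8.72 and 8.58 CPM in the Mix libraries, against 44.0, 41.9 and 54.4 CPM in the OP50 libraries (log2 fold change -2.57 ± 0.22 (SE), adjusted p = 0.00029). The list's median log2 fold change was -1.78. In 4 of the 8 genes all Mix libraries lay below all OP50 libraries, beside 11.2% of all genes. The share of all genes that passed, 0.674%, is the background for each list of this paragraph. Of 33 epidermal antimicrobial peptide genes 1 passed, cnc-4, with 11.96, 4.50 and 9.50 CPM on Mix, against 45.3, 50.8 and 53.8 CPM on OP50 (log2 fold change -2.53 ± 0.41 (SE), adjusted p = 0.016, list median 0.25). The cnc-4 call was lost without Mix replicates 2 and 3 and OP50 replicate 2, each left out in turn (adjusted p = 0.056 to 0.087). Of 19 pals genes 1 passed, pals-23 (-1.13 ± 0.18, list median -0.32), and its call was lost without Mix replicates 1, 2 and 3 and OP50 replicates 1 and 2, each left out in turn (adjusted p = 0.052 to 0.092). Of 14 aspartic protease genes 1 passed, asp-13, with 57.5, 37.9 and 33.2 CPM on Mix, against 295, 317 and 208 CPM on OP50 (log2 fold change -2.67 ± 0.34 (SE), adjusted p = 0.003, list median 0.29).

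Further genes among the 12 strongest falls at a mean log2 CPM of at least 2 were F21C10.9, DH11.2 and T05E12.6, which have no named function in the annotation. F21C10.9 had 1.45, 0.934 and 0.766 CPM on Mix, against 116, 204 and 40.3 CPM on OP50 (log2 fold change -6.79 ± 0.59 (SE), adjusted p = 0.00029), and it overlaps F21C10.10. DH11.2 had 5.66, 7.12 and 9.73 CPM on Mix, against 102, 108 and 49.6 CPM on OP50 (log2 fold change -3.53 ± 0.42 (SE), adjusted p = 0.0019). T05E12.6 had 19.7, 21.3 and 20.6 CPM on Mix, against 326, 232 and 91.8 CPM on OP50 (log2 fold change -3.40 ± 0.45 (SE), adjusted p = 0.0039). In the list of the molting cycle, 2 of 104 genes passed, beside 0.674% of all genes, and the list's median was -0.12. These were the transthyretin-like genes ttr-38 (-2.16 ± 0.35) and ttr-37 (-1.33 ± 0.24). The ttr-38 call was lost without Mix replicates 2 and 3 and OP50 replicate 2, each left out in turn (adjusted p = 0.068 to 0.1), and the ttr-37 call without Mix replicates 1, 2 and 3 and OP50 replicates 1 and 2, each left out in turn (adjusted p = 0.096 to 0.17).

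The 19 genes that were higher on Mix had a median log2 fold change of 1.99. The largest was nspg-7.2, with 13.2, 6.05 and 6.43 CPM in the Mix libraries, against 0.0560, 0.243 and 0.533 CPM in the OP50 libraries (log2 fold change 5.20 ± 0.71 (SE), adjusted p = 0.0048), so that it was nearly silent on OP50. F44E7.5 was the highest above a mean log2 CPM of 2, with 129, 164 and 156 CPM on Mix, against 6.43, 3.98 and 4.36 CPM on OP50 (log2 fold change 4.91 ± 0.52 (SE), adjusted p = 0.00094). It overlaps F44E7.13 and F44E7.15 on the opposite strand, and unstranded reads do not tell which of them was transcribed. The gene ech-9, which encodes an enoyl-CoA hydratase, had 13.8, 17.3 and 21.98 CPM on Mix, against 2.51, 1.12 and 2.96 CPM on OP50 (log2 fold change 3.00 ± 0.44 (SE), adjusted p = 0.0079). Its call was lost with the run of library codes as a block (adjusted p = 0.069). A bZIP transcription factor gene, zip-11, had 27.6, 28.9 and 20.9 CPM on Mix, against 4.34, 5.78 and 5.67 CPM on OP50 (log2 fold change 2.30 ± 0.30 (SE), adjusted p = 0.0033).

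Smaller rises were measured for klo-2 (1.69 ± 0.21), a homologue of the klotho genes, for F32H5.1 (1.43 ± 0.17), for F19C7.2 (1.86 ± 0.24) and for ZK896.5 (1.91 ± 0.27). F40F8.5 had 222, 229 and 229.8 CPM on Mix, against 93.5, 83.5 and 76.2 CPM on OP50 (log2 fold change 1.43 ± 0.27 (SE), adjusted p = 0.036), and its Mix libraries were nearly equal. F52E1.14, which overlaps the heat shock gene hsp-17, had 149, 147 and 141 CPM on Mix, against 60.6, 34.1 and 65.2 CPM on OP50 (log2 fold change 1.45 ± 0.27 (SE), adjusted p = 0.037). The F40F8.5 call was lost without Mix replicates 1, 2 and 3, MYb65 replicates 1, 2 and 3 and OP50 replicates 1, 2 and 4, each left out in turn (adjusted p = 0.061 to 0.15). F52E1.14 lost its call without Mix replicates 1, 2 and 3, MYb65 replicates 1, 2 and 3 and OP50 replicates 1 and 2, each left out in turn (adjusted p = 0.057 to 0.13). F10D2.10 (1.17 ± 0.21) and the pseudogene WBGene00018448 (1.99 ± 0.34) also passed, the F10D2.10 call being lost without Mix replicates 1, 2 and 3, MYb65 replicates 1 and 2 and OP50 replicates 1 and 4, each left out in turn (adjusted p = 0.054 to 0.15) and that of WBGene00018448 without Mix replicates 1, 2 and 3 and OP50 replicates 1 and 2, each left out in turn (adjusted p = 0.057 to 0.11).

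Of 21 lipase genes, lipl-4 passed, a lysosomal acid lipase gene known in C. elegans from lipid signalling in longevity (list median -0.04). Its level was low in both groups, with 1.91, 1.38 and 1.46 CPM on Mix, against 0.336, 0.437 and 0.388 CPM on OP50 (log2 fold change 2.05 ± 0.36 (SE), adjusted p = 0.026), and it overlaps K04A8.15. The lipl-4 call was lost without Mix replicates 1, 2 and 3, MYb65 replicate 2 and OP50 replicates 1, 2 and 4, each left out in turn (adjusted p = 0.0502 to 0.15). A neighbour of lipl-4 on chromosome V, K04A8.20, was higher too (log2 fold change 3.13 ± 0.58, adjusted p = 0.036), and lies 378 bases before it. K04A8.20 was singled out after its values were seen.

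Of the 18 genes that the study itself singled out, 4 were lower (mtl-2, cth-1, acdh-1 and metr-1) and 1 higher (nspg-7.2) on Mix. The study chose some of them on libraries that include the OP50 libraries used here, so that the direction of those is not independent evidence. It named the lectin-like genes from transcripts and proteins of young adults, a stage and partly a measure unlike these. The saposin-like genes were taken as known targets of ELT-2, and the adenosine kinase, CoA transferase and amine genes came from metabolic network models. Lectin-like genes among them did not pass, with 1715, 1433 and 1447 CPM in the Mix libraries, against 903, 879 and 777 CPM in the OP50 libraries for clec-63 (log2 fold change 0.84 ± 0.23, adjusted p = 0.19) and with 83.9, 93.8 and 78.5 CPM on Mix, against 55.6, 44.5 and 60.5 CPM on OP50 for clec-65 (log2 fold change 0.67 ± 0.14, adjusted p = 0.067). In both genes every Mix library was above every OP50 library. In clec-47 every Mix library was below, with 1.91, 1.29 and 1.46 CPM on Mix, against 47.0, 22.3 and 30.2 CPM on OP50 (log2 fold change -4.41 ± 1.21, adjusted p = 0.19), and in clec-218 too (-1.26 ± 0.36, adjusted p = 0.23). The intestinal GATA factor gene elt-2 had 30.5, 26.8 and 26.7 CPM on Mix, against 26.1, 28.9 and 26.5 CPM on OP50 (log2 fold change 0.05 ± 0.12, adjusted p = 0.9). Antimicrobial saposin-like genes overlapped between groups, with a log2 fold change of 0.66 ± 0.37 for spp-3 and of 0.41 ± 0.41 for spp-5, as did the protease gene asp-8 (0.58 ± 0.51) and the adenosine kinase gene adk-1 (-0.51 ± 0.32). For C05C10.3, a ketone body CoA transferase gene, the log2 fold change was -1.06 ± 0.36 (adjusted p = 0.38). Of the genes of amine synthesis, tph-1, which makes serotonin, had 1.10 ± 0.41, while tdc-1 (-0.21 ± 0.22) and tbh-1 (-0.05 ± 0.24), which make tyramine and octopamine, were near 0.

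From the 86 genes that the study described as its core response to MYb71 and MYb237, 85 were tested. Of the 85, 40 were lower and 7 higher on Mix (median -1.92), beside 0.542% and 0.132% of all genes. That list was chosen on those isolates against OP50 libraries that include the ones used here, and is no independent evidence of direction. Of the 97 called genes, 47 were on it and 50 were not, among them cbs-1, mtrr-1, cblc-1, mmaa-1, fat-7, acdh-2 and ech-9.

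In 26 of the 48 lists with a tested member no gene passed in edgeR's test. These lists held 615 genes in all. An unadjusted p under 0.05 was found in 44 (7.15%, beside 8.45% of all genes), and by DESeq2 1 was higher and 4 were lower. Cytosolic ribosomal protein genes had a median log2 fold change of -0.25, and in 38 of 77 all Mix libraries lay below all OP50 libraries, beside 11.2% of all genes. Their summed level was 132400 to 142600 CPM on Mix, against 152400 to 160100 CPM on OP50. Body wall muscle markers, none of which passed, had a median of 0.65. All Mix libraries lay above all OP50 libraries in 7 of 11 of these genes, beside 9.73% of all genes. The muscle myosin genes unc-54 (0.75 ± 0.50) and myo-3 (0.67 ± 0.38) were among the 7. The summed level of the body wall muscle markers was 21540 to 25770 CPM on Mix and 11250 to 19500 CPM on OP50, with the lowest value in OP50 replicate 4. The part of these levels in the results for single genes was not tested.

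Intestine markers summed to 10400 to 11140 CPM on Mix and 5952 to 8598 CPM on OP50, without overlap, and the median of the 12 genes was 0.16. The aspartic protease gene asp-1, the most abundant of them, had 5835, 5644 and 5518 CPM on Mix, against 3522, 4101 and 2361 CPM on OP50 (log2 fold change 0.77 ± 0.30, adjusted p = 0.5). The defining genes ges-1 (0.11 ± 0.15) and act-5 (0.20 ± 0.30) overlapped between groups.

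Among the other lists without a call, the median log2 fold change in metabolism was 0.03 for glycolysis (22 genes), -0.11 for the respiratory chain (43 genes), -0.18 for folate and glycine cleavage (11 genes), 0.15 for flavin monooxygenases (5 genes) and 0.00 for N-glycan assembly (20 genes). In defence they were -0.27 for lysozymes (13 genes), 0.13 for saposin-like proteins (23 genes), -0.01 for CUB-domain and dod genes (9 genes), 0.25 for cathepsin-type proteases (10 genes), -0.20 for heat shock proteins (21 genes) and 0.13 for transcription factors of intestine and stress (17 genes). In development and signalling they were 0.04 for cuticle collagens (133 genes), -0.50 for hedgehog-related proteins (43 genes), 0.63 for heterochronic genes (9 genes), -0.14 for insulin-like peptides (26 genes) and 0.26 for biogenic amine synthesis (8 genes). In 6 of the 9 heterochronic genes, which time larval stages, all Mix libraries lay above all OP50 libraries, beside 9.73% of all genes. Among the 6 were lin-29 (0.80 ± 0.27, adjusted p = 0.38) and daf-12 (0.75 ± 0.26, adjusted p = 0.39). For the other tissues medians were 0.19 for germline (18 genes), 0.11 for oocyte and eggshell (11 genes), 0.31 for vitellogenins (6 genes), 0.39 for pharynx (7 genes), 0.02 for neurons (13 genes) and -0.39 for hypodermis (8 genes). No major sperm protein gene had enough counts to be tested, and their summed level was at most 3.98 CPM on Mix and 4.76 CPM on OP50.

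Whether the mixture acted differently from its isolates was asked within the same model. No gene (0%) passed between Mix and the mean of MYb71 and MYb65, between Mix and MYb71 or between Mix and MYb65 in edgeR's test, and 109, 290 and 101 genes had an unadjusted p under 0.05. DESeq2 called 0, 1 and 0 genes, and the 1 gene was fmo-2, a flavin monooxygenase gene, lower on Mix than on MYb71 (log2 fold change -4.84 ± 1.01, adjusted p = 0.022). Over the 97 genes called against OP50, the median size of the difference between Mix and the mean of the isolates was 0.15 on the log2 scale, beside 0.12 over all genes, and 2 of the 97 (2.06%, beside 0.758% of all genes) had an unadjusted p under 0.05. Between Mix and MYb71 the median size was 0.23 over the 97 genes, beside 0.18 over all genes, and 7 of the 97 (7.22%, beside 2.02%) had such a p. Between Mix and MYb65 it was 0.17 over the 97 genes, beside 0.13 over all genes, and 4 of the 97 (4.12%, beside 0.702%) had such a p. The 97 genes were chosen on the same Mix libraries, which favours genes whose Mix values deviate by chance. Their sizes and shares are therefore no independent measure of a difference from the isolates.

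Mix, MYb71 and MYb65 were each compared with the same 3 OP50 libraries, so that their changes against OP50 share those libraries. For acdh-1 the log2 fold changes were -10.33 ± 0.90 on Mix, -11.83 ± 0.84 on MYb71 and -10.11 ± 0.89 on MYb65, and Mix minus the mean of the isolates was 0.64 ± 0.56. For nhr-68 they were -2.52 ± 0.24, -2.48 ± 0.22 and -2.59 ± 0.24 in that order, and Mix minus the mean of the isolates was 0.01 ± 0.20. The corresponding difference was 0.05 ± 0.44 for argk-1, -0.02 ± 0.23 for cth-1, 0.02 ± 0.31 for metr-1 and 0.32 ± 0.21 for cbs-1, each within 2 SE of 0. Other called genes lay beyond 2 SE. Mix minus MYb71 was 1.497 ± 0.661 for acdh-1 and 0.741 ± 0.330 for fat-7, 2 of the 7 such genes with an unadjusted p under 0.05. Mix minus MYb65 was -0.223 ± 0.662 for acdh-1. Mix minus the mean of the isolates was -1.599 ± 0.356 for the barely detected sra-33, singled out after its values were seen. None of these differences passed after adjustment. Against OP50, 109 genes (0.758%) passed on MYb71, 88 of them lower (0.612%) and 21 higher (0.146%), and 140 (0.973%) on MYb65, 106 of them lower (0.737%) and 34 higher (0.236%). Of the genes called on Mix, 67 of 78 lower and 14 of 19 higher ones were called in the same direction on MYb71, and 74 and 18 on MYb65. The number of libraries differed between the groups, and a gene that passed on 1 bacterium and not on another is not thereby shown to differ.

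**Figure D4:**
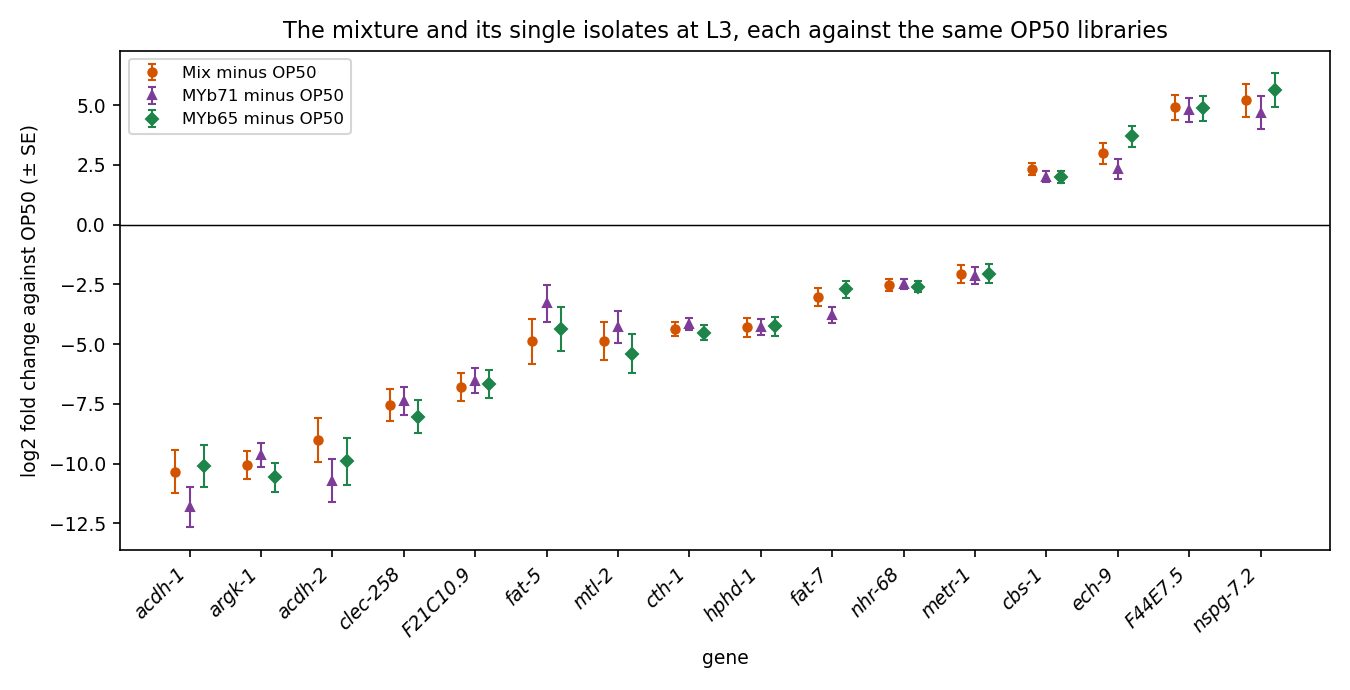
Log2 fold change against OP50 (y axis, ± SE) at L3 on Mix (circles), MYb71 (triangles) and MYb65 (diamonds) for 16 genes (x axis). All 3 groups were set against the same 3 OP50 libraries, and the SEs of the groups overlap for nhr-68 (-2.52 ± 0.24 on Mix, -2.48 ± 0.22 on MYb71 and -2.59 ± 0.24 on MYb65).

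To ask whether the changes differ between stages, Mix and OP50 were compared at all 6 sampled stages in a model of 12 groups, with libraries of their own at each stage and without OP50 replicate 3 at L2 and at L3. In it 74 of 17629 genes (0.42%) passed at L3, 29 (0.165%) at L2, 30 (0.17%) at L4, 8 (0.0454%) at day 1 of adulthood (Ad1), 1 (0.00567%) at day 3 (Ad3) and 4 (0.0227%) at day 7 (Ad7). The 1 gene at Ad3 was asp-8 (log2 fold change 2.34 ± 0.35), which did not pass at L3. Those at Ad7 were asp-8 (2.09 ± 0.35), clec-258 (-8.69 ± 1.56), str-7 (-6.43 ± 1.00) and C04G6.6 (-1.87 ± 0.28), of which C04G6.6 and the chemoreceptor gene str-7 were singled out after their values were seen. No gene (0%) passed for a difference between the L3 and L2 changes or between the L3 and L4 changes, and 286 and 376 had an unadjusted p under 0.05. DESeq2 called 1 gene (scl-12) for L3 against L2 and 2 genes (scl-12 and C55B7.3) for L3 against L4.

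The sign of the change at L3 was shared by most of the 97 genes at the other stages, namely by 94 at L2 and 97 at L4, and in adults by 94 on day 1, 85 on day 3 and 83 on day 7. Over all genes tested the shares with the sign of L3 were 65.6%, 69.4%, 61.1%, 51.3% and 50.8% in the same order. The median size of the change of the 97 genes on the log2 scale was 1.40 at L2 and 1.63 at L4, and in adults it was 1.27 on day 1, 0.75 on day 3 and 0.37 on day 7. The genes were chosen at L3, so that their own change at L3 is no measure for this.

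The log2 fold change of acdh-1 was -11.65 ± 1.70 at L2, -10.34 ± 1.58 at L3, -9.24 ± 1.52 at L4 and -9.65 ± 1.56 at Ad1, and it passed at each of these. At Ad3 (-6.91 ± 1.38) and Ad7 (-5.44 ± 1.29) it did not pass. For mtrr-1 it was -2.36 ± 0.34 at L2, -2.93 ± 0.35 at L3, -0.98 ± 0.33 at L4 and -0.33 ± 0.32 at Ad1, and passed at L2 and L3. Its difference between the L3 and L4 changes was -1.94 ± 0.46 (adjusted p = 1). The metallothionein gene mtl-2 had -1.11 ± 0.65 at L2, -4.88 ± 0.77 at L3 and -4.52 ± 0.76 at L4. In adults it had -5.003 ± 0.77 on day 1 and -0.94 ± 0.64 on day 3. Of these stages mtl-2 passed at L3, at L4 and on day 1 (adjusted p = 0.0033 on day 1). Its difference between the L3 and L2 changes was -3.77 ± 0.96 (adjusted p = 1). For fat-5 the log2 fold change was -2.10 ± 0.83 at L2, -4.91 ± 0.93 at L3 and -0.45 ± 0.76 at L4, and of all stages it passed at L3. For fat-5 the L3 change minus the L4 change was -4.46 ± 1.17 (adjusted p = 1). C55B7.3, the neighbour of acdh-1, had -10.03 ± 1.48 at L2, -9.21 ± 1.39 at L3 and -1.005 ± 0.83 at L4, with a difference of -8.20 ± 1.63 between L3 and L4 (adjusted p = 0.23, and 0.0042 in DESeq2).

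**Figure D5:**
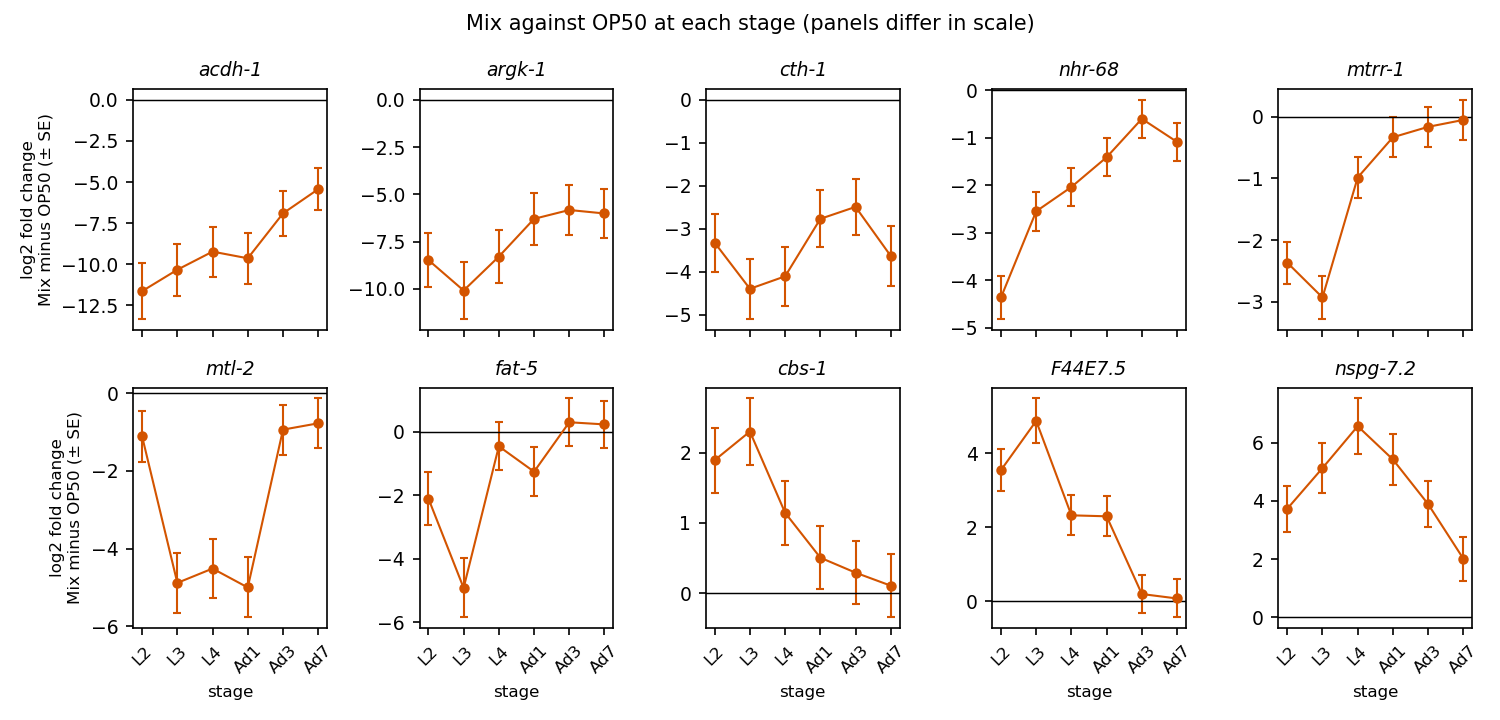
Log2 fold change of Mix over OP50 (y axes, ± SE) at L2, L3, L4 and days 1, 3 and 7 of adulthood (x axes) for 10 genes, 1 panel each with its own scale. At L3 the points of acdh-1 (-10.34 ± 1.58) and argk-1 (-10.08 ± 1.51) are the lowest, and those of cbs-1, F44E7.5 and nspg-7.2 lie above 0.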

How the data were processed

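Polyadenylated RNA of whole worms was sequenced in paired-end mode on a HiSeq instrument. Per the study's methods, reads were trimmed with Trimmomatic, aligned with STAR 2.5.3a to genome release WS235 and counted per gene with HTSeq, and the kit used does not mark strand. The deposited table holds the authors' raw counts of 46748 genes in 82 libraries, without normalization. Gene symbols were found for 43693 of them, and positions are those of WBcel235, the assembly of WS235.

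Counts of the 13 L3 libraries (3 Mix, 4 MYb71, 3 MYb65 and 3 OP50) were fitted together with edgeR 4.0.16 (R 4.3.3) as 4 groups, so that they share 1 estimate of the spread. Genes were kept with filterByExpr (minimum count 10, total 15, share 0.7), libraries were scaled by TMM, and the robust quasi-likelihood test was adjusted over all genes tested by Benjamini-Hochberg (threshold 0.05). Levels are CPM, counts scaled to a common library size, on TMM-scaled library sizes, computed from the deposited counts. Standard errors (SE) were derived from the fold change and its F statistic. Changes at other stages came from a second model of 12 groups, Mix and OP50 at 6 stages. Total counts of the 13 libraries ranged from 10513060 to 74552875, and intervals cover counting error only. The script was tested on simulated data. No pair of libraries compared (15 pairs) agreed within sampling noise.

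Named genes were, among those that passed with a mean log2 CPM of at least 2, the 12 highest and 12 lowest changes, up to 4 genes that passed from each list by smallest p, the genes singled out in the study, and members of short lists. Genes named beside these are marked. The members, the 49 lists and the 86 core genes were chosen with earlier results of these data known, and 9 list entries matched no gene. Alternatives were DESeq2 1.42.0, its size factors, other filters, other sets of libraries, blocks and the omission of single libraries. The label MYb65 was taken as given, and the core genes belong to MYb71 and MYb237. The study's own tool, aFold, was not used.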

Additional observations from a re-analysis of the deposited data

Results flagged for a closer look

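Libraries that stood apart from the other libraries of their group at L3 were looked for in groups of 4, by the gap to the nearest library over the range of the group. Among 28 pairs of a group and a measure, 10 had such a library, 3 in MYb71 and 7 in OP50, where replicate 3, left out of the models except as an alternative, was counted in. Chance alone marks about 1 in 20 groups. That rate is no measure for OP50 replicate 3, which had been left out beforehand for its adult profile, so that its marks were to be foreseen. No such search was made in Mix, with 3 libraries.

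In MYb71 the summed level of the vitellogenins, the yolk proteins, was lowest in replicate 2 (80.09 CPM, against 89.88 to 90.98 CPM in the other libraries). That of oocyte and eggshell markers was lowest in replicate 4 (51.63 CPM, against 76.98 to 81.09 CPM). That of the major sperm proteins was highest in replicate 1 (3.066 CPM, against 1.257 to 1.545 CPM). In OP50 the total count was highest in replicate 1 (74552875), a library that entered the comparison with Mix.

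The remaining marks in OP50 all belonged to replicate 3. Its stage position was 0.6857, and its summed levels were 33900 CPM for vitellogenins, 20040 CPM for oocyte and eggshell markers, 6366 CPM for germline markers, 74.54 CPM for major sperm proteins and 95270 CPM for cytosolic ribosomal proteins, the last being the lowest of the group. The vitellogenin level of 33900 CPM also stands as a signal in a library left out of the main comparison, against at most 107 CPM in the other OP50 libraries.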

How the results depend on the processing

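The 97 genes called between Mix and OP50 (19 higher, 78 lower) became 93 with DESeq2's size factors, 102 without a filter on low counts and 77 with a CPM of at least 5 in 3 libraries. They became 293 with DESeq2 (89 higher, 204 lower, all 97 included), 22 with OP50 replicate 3 (5 higher, 17 lower), 13 with Mix and OP50 alone (3 higher, 10 lower), 179 with all 24 groups in 1 model (31 higher, 148 lower) and 52 with the run of library codes as a block (11 higher, 41 lower). Leaving out 1 of the 13 libraries gave 43 to 166 genes, 9 to 50 higher and 34 to 116 lower. The lowest counts came without Mix replicate 2 and the highest without MYb71 replicate 4, and the cause was not tested. Between Mix and each isolate or their mean 0 genes passed under every alternative run, except 1 between Mix and MYb71 with DESeq2 (lower on Mix). For the difference between the L3 and L2 changes 1 gene passed with DESeq2 (lower) and 1 without Mix replicate 1 (str-176, higher). For L3 against L4 2 passed with DESeq2 (both lower) and 1 with larval stages only (C55B7.3, lower). Leaving out 1 library gave 0 to 1 genes for L3 against L2 and 0 for L3 against L4, and the alternatives not named here gave 0 for both.

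The labels do not say that a replicate number pairs libraries, and same-numbered Mix and OP50 libraries deviated in opposite directions (r = -0.69 for number 1 and -0.55 for number 2). With the replicate block 95 genes passed (22 higher, 73 lower), 65 of them among the 97, and 0 in every other comparison. With the numbers 1 and 2 of Mix exchanged, a block added after seeing these correlations, 179 passed (57 higher, 122 lower).

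Of the 53 named genes that passed, 2 (argk-1 and clec-258) passed under all 23 alternatives, 251 of 1214 pairs of a gene and an alternative missed the threshold, and 0 changed direction. With the replicate block 14 of the named genes missed it (ech-9 at an adjusted p of 0.055, pals-23, cnc-4, clec-48, clec-206, clec-210, cyp-35C1, F10D2.10, ttr-37, ugt-16, F40F8.5, F52E1.14, nhr-11 and fat-5). With the run of library codes as a block 14 did too, with metr-1 and ttr-38 in place of clec-48 and ugt-16. The omission of single MYb71 libraries (1, 2 and 4) and MYb65 libraries (1 and 2) was also chosen after seeing the data.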

Other observations

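The genes named here were called, belong to none of the lists of pathways, gene families and cell types, and were chosen after their values were seen. Of them, str-7, srh-237, vmo-1 and Y38H6C.21 are on the core list of the study. The chemoreceptor gene str-7 had 0.248, 0.178 and 0.153 CPM in the Mix libraries, against 7.95, 12.04 and 4.02 CPM in the OP50 libraries (log2 fold change -5.29 ± 0.48 (SE), adjusted p = 0.00029). The chemoreceptor genes srh-237 (log2 fold change -3.77 ± 0.42, adjusted p = 0.0012) and sra-33 (-2.96 ± 0.36, adjusted p = 0.002) were lower too. Of these, sra-33 was barely detected, with 5 counts in all over the Mix libraries and 77 over the OP50 libraries. On chromosome V, str-7 lies 1138 bases from cth-1 and 503 bases from F22B8.7, and srh-237 lies 936 bases from T05E12.6, all of them genes called lower on Mix.

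Of the Mediator complex, which links transcription factors to RNA polymerase, mdt-18 (-1.61 ± 0.25, adjusted p = 0.012), which overlaps dbr-1 and uri-1, and mdt-4 (-0.58 ± 0.11, adjusted p = 0.047), which overlaps ZK546.19, were lower on Mix. The superoxide dismutase gene sod-1, which overlaps C15F1.13, had 29.2, 36.1 and 34.0 CPM on Mix, against 81.0, 76.4 and 69.5 CPM on OP50 (log2 fold change -1.19 ± 0.21 (SE), adjusted p = 0.024). Genes adjacent on the genome were called together in vmo-1 and Y38H6C.21, which lie 1044 bases apart on chromosome V. They had 3 and 3 counts in all over the Mix libraries, against 158 and 214 over the OP50 libraries, so that per depth their levels were 29.8 (exact 95% interval 10.02 to 146) and 40.4 (13.6 to 197) times as high on OP50.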
